A study of Mus musculus with 6 samples.

Results

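Growth factor and insulin receptors set how a hepatocyte responds to signals that reach the liver in blood or from neighbouring cells, and 10 transcripts of this kind were read here in whole livers. They are the EGF receptor family members Egfr, Erbb2 and Erbb3, the hepatocyte growth factor receptor Met, the insulin receptor Insr, the IGF-1 receptor Igf1r, the insulin receptor substrates Irs1 and Irs2, and the fibroblast growth factor receptor Fgfr4 with its co-receptor beta-Klotho (Klb). Their rows were taken by gene symbol. All 10 were among the 17975 genes of the table, and all 10 were among the 13805 genes with enough counts to test. RNA-seq was done on the livers of 3 WT mice and 3 Hom mice, 1 mouse to a library. Hom mice were NEK7 fl/fl mice that carried Alb-Cre, a Cre recombinase under the albumin promoter, which the study used to delete Nek7 in hepatocytes. Whether every other type of liver cell kept the gene cannot be read from whole livers. The floxed and the Cre lines were on a C57BL/6 background, and the labels name no treatment. WT mice are labelled as wild type. The text used here does not state whether they carried a floxed allele or Cre, and the figure of the breeding scheme was not read. The study states an age range in weeks for its mice in general, describes Hom mice at some months of age and used both sexes in its knockout experiments, but the sources used here do not tie an age or a sex to each sequenced liver.

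EGFR, ERBB2, ERBB3 and MET are receptor tyrosine kinases. ERBB2 binds no ligand of its own, and ERBB3 binds neuregulins but has little kinase activity, so both signal in pairs with another member of the family. The insulin receptor passes its signal through IRS1 and IRS2 to PI3-kinase and AKT, which restrain glucose production and raise lipid synthesis, and IGF1R, the closely related receptor, is scarce in adult hepatocytes. FGFR4 with beta-Klotho receives FGF15 from the intestine and lowers bile acid synthesis.

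Of the 10 transcripts, Egfr and Irs1 were lower and Erbb2 and Igf1r were higher in Hom livers. The sequences around the annotated transcription starts of these 4 genes are shown because they are the members whose transcript level passed the test. Each is 300 bases long, most of it before the start, and runs 5' to 3' on the strand of the gene, from RefSeq on GRCm38.p6, with every GC box (GGGCGG on either strand, read as CCGCCC where it lies on the opposite strand) in capitals. Egfr lies on the plus strand at chr11:16751953-16752252, Irs1 on the minus strand at chr1:82291390-82291689, Igf1r on the plus strand at chr7:67952007-67952306 and Erbb2 on the plus strand at chr11:98412234-98412533.
Egfr: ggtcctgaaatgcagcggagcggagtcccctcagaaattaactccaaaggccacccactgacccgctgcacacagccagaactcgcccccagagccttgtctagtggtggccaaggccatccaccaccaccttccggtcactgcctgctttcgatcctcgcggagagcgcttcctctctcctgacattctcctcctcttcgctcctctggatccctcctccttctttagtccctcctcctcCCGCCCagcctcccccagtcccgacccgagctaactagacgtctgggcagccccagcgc
Irs1: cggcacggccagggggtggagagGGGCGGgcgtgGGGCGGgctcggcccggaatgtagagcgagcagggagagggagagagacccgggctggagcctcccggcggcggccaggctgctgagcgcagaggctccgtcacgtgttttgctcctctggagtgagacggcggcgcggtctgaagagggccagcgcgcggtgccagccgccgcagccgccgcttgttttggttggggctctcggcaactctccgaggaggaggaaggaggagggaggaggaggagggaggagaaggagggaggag
Igf1r: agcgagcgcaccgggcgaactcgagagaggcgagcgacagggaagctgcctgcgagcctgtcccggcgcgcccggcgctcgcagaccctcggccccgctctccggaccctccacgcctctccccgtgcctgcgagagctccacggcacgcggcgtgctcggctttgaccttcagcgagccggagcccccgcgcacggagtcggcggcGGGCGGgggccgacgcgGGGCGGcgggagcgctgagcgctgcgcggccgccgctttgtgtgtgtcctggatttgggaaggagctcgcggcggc
Erbb2: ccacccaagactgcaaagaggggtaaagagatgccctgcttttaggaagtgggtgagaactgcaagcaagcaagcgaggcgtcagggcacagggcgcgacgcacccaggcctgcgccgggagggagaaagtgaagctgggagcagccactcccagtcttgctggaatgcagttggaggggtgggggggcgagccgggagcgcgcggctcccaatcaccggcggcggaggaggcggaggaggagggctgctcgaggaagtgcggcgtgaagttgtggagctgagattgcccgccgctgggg
The Egfr window held 1 GC box, those of Irs1 and Igf1r held 2 each, and that of Erbb2 held 0. Their GC content was 62.3% for Egfr, 66% for Erbb2, 71.3% for Irs1 and 76% for Igf1r, against a median of 52.7% over 32851 promoter windows of the same length. A GC box was in 35.7% of those windows. RefSeq entries were matched for 8 of the 10 members, and Erbb3 and Insr had none. None of the 8 windows held TATAAA, the core of a TATA box, on either strand. The same was true of GTAAACA, a forkhead motif of the kind that FOXO factors bind. Of all windows, 13.6% and 3.65% held these, so 8 windows are too few to set the members apart. TGACTCA, the AP-1 motif, was found only in the Met window among the 8, and in 5.2% of all windows. These matches describe the letters of the windows, and no readout of binding or of promoter activity was used here.

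The libraries held 19349418 to 19730236 estimated counts per liver. Nek7, the targeted gene, was at 62.9, 69.1 and 63.7 CPM in the WT livers and at 14.5, 18.1 and 16.7 CPM in the Hom livers, 25.2% of the WT mean, and it was lower in 3 of 3 Hom livers (log2 fold change -1.99, SE 0.103, edgeR adjusted p = 0.000159). CPM here are counts relative to the TMM-scaled library size, with factors of 0.806 to 0.924 in WT and 1.09 to 1.23 in Hom livers. Scaling by library size alone moved the median of all genes by 0.454 on the log2 scale, so each difference below is relative to the bulk of genes. Among the livers, Hom replicate 1 stood apart in Ddx3y and Kdm5d, both on the Y chromosome, which were at 0 counts there and at 243 or more in every other liver. Markers of other cells moved with genotype. Of all genes tested, 21.5% were higher and 20.1% were lower. Of 24 hepatocyte markers, 18 were lower and 0 were higher (summed level 208000 to 244000 CPM in WT and 109000 to 146000 CPM in Hom livers), and 10 of 12 cholangiocyte markers were higher (85.9 to 112 against 645 to 913 CPM). Alb alone made a large part of the hepatocyte sum, at 96400 to 124000 CPM in WT and 39600 to 55800 CPM in Hom livers. Of 14 markers of stellate cells and fibroblasts, 8 were higher and 1 was lower (376 to 437 against 783 to 883 CPM). Of 10 endothelial markers, 1 was higher and 5 were lower (247 to 329 against 191 to 200 CPM). The summed macrophage markers (201 to 518 against 189 to 284 CPM; 2 of 10 higher, 3 lower) and lymphocyte markers (6.16 to 9.55 against 8.07 to 14.1 CPM; 1 of 6 tested higher, 0 lower) overlapped between groups. In none of these lists was a marker of the table at 0 in all livers.

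With edgeR's quasi-likelihood test at an adjusted p under 0.05, 2 of the 10 members were higher and 2 were lower in Hom livers. Of all 13805 genes, 21.5% were higher and 20.1% were lower, so the share of members called in each direction, 20%, was near that of all genes. Without overlap between the groups, 2 members were higher and 4 were lower, against 28.7% and 27.0% of all genes. The median log2 fold change was -0.20 over the members and -0.002 over all genes. Without Hom replicate 1, the 4 members past the threshold were again Egfr and Irs1 (lower) and Erbb2 and Igf1r (higher). The values in each liver follow by family.

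**Figure D1:**
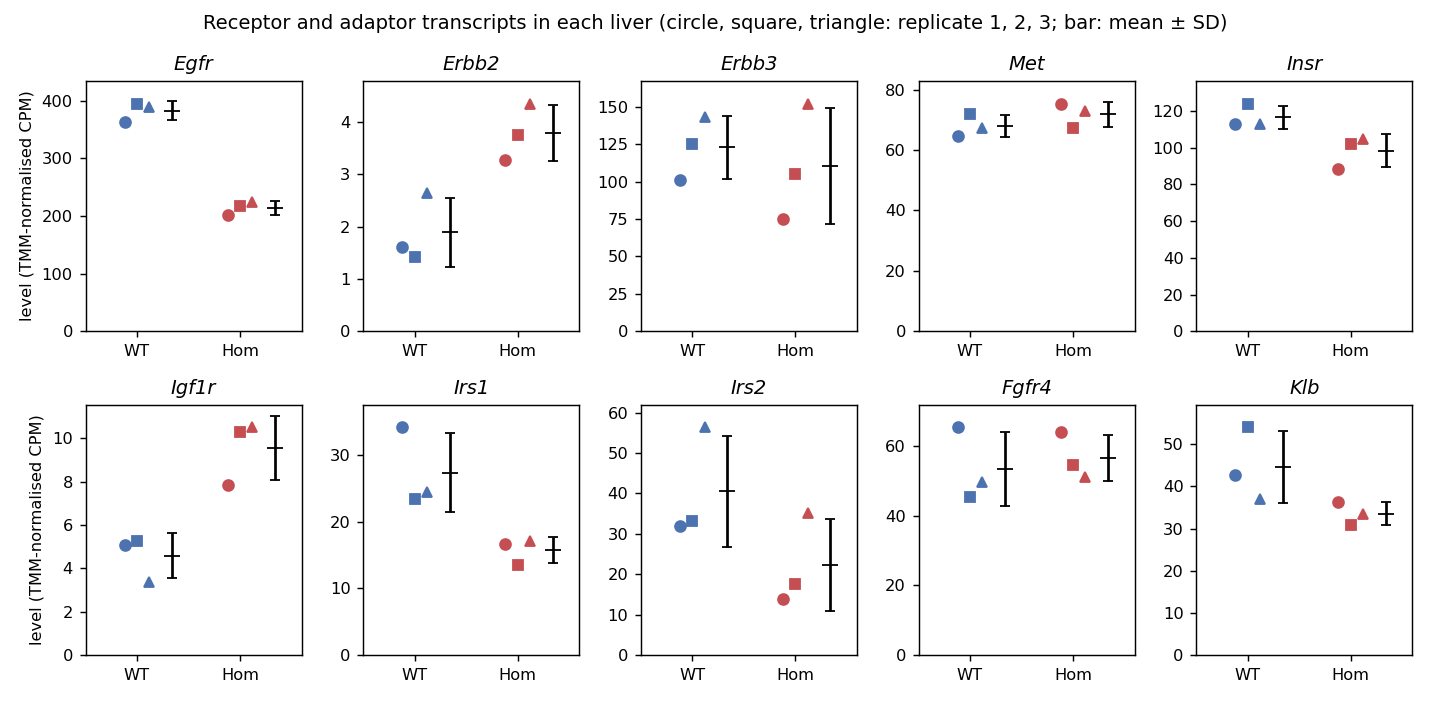
Level of each transcript in TMM-normalised CPM (vertical axis, from 0, a separate range in each panel) in 3 WT livers (blue) and 3 Hom livers (red), with symbols for the replicate number and bars for mean ± SD. Egfr and Irs1 lay lower and Erbb2 and Igf1r lay higher in all 3 Hom livers, and the replicate 3 livers had the highest Irs2 level of both groups.

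Egfr, the receptor for EGF and TGF-alpha and the most abundant of the 10 per length, fell to 56.2% of its WT level. It was at 364, 395 and 390 CPM in the WT livers and at 201, 218 and 225 CPM in the Hom livers (382.8 ± 16.4 against 215 ± 12.5, mean ± SD, n = 3 each). The groups were well apart, with the lowest WT liver above the highest Hom liver. This was a log2 fold change of -0.83 (SE 0.0974, 95% interval -1.06 to -0.60, edgeR adjusted p = 0.00125). In a bulk sample, fewer cells of a type and less RNA per cell cannot be told apart, and the summed hepatocyte markers were lower in the same livers. Their part in this difference was not tested. Without Hom replicate 1 the log2 fold change of Egfr was -0.79, and with library-size scaling it was -0.37 (edgeR adjusted p = 0.0363).

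Erbb2, the partner without a ligand, was at a low level in WT livers and at 200.5% of it in Hom livers. It had 29, 22 and 43 counts in the WT livers (1.62, 1.41 and 2.64 CPM) and 70, 91 and 101 counts in the Hom livers (3.27, 3.75 and 4.35 CPM). Every Hom liver lay above every WT liver. On the log2 scale the fold change was 1.00 (SE 0.288, 95% interval 0.32 to 1.68, edgeR adjusted p = 0.0297). These counts are low, and the call did not hold when 1 liver was left out in 4 of 6 cases. It was then 0.90 on the log2 scale without WT replicate 1 (edgeR adjusted p = 0.0699), 0.83 without WT replicate 2 (edgeR adjusted p = 0.0893), 1.01 without Hom replicate 2 (edgeR adjusted p = 0.0811) and 0.89 without Hom replicate 3 (edgeR adjusted p = 0.107). ERBB2 is made by bile duct cells as well as hepatocytes, and the summed cholangiocyte markers were higher in the same livers. Their part in the difference was not tested.

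Erbb3, the neuregulin receptor, varied more among Hom livers than it differed between groups. Its level was 101, 125 and 143 CPM in the WT livers and 74.8, 105 and 152 CPM in the Hom livers. The Hom livers held both the lowest and the highest of the 6 values. Its log2 fold change was -0.15 (SE 0.257, 95% interval -0.76 to 0.45, edgeR adjusted p = 0.657), and its sign changed without Hom replicate 1 (0.06) and with library-size scaling (0.32). The interval spans a fall and a rise of moderate size, so no difference was detectable for Erbb3.

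Met, the receptor for hepatocyte growth factor, was close in both groups and had the smallest standard error of the 10. Its level was 64.7, 71.8 and 67.4 CPM in the WT livers and 75.3, 67.2 and 72.9 CPM in the Hom livers, and the groups overlapped. The log2 fold change was 0.08 (SE 0.0806), and its 95% interval, -0.11 to 0.27, was narrow (edgeR adjusted p = 0.463). Relative to library size alone, Met was higher in Hom livers by 0.53 on the log2 scale (edgeR adjusted p = 0.00216), close to the 0.454 by which that scaling moved the median gene. With the gene length correction, its log2 fold change was -0.03.

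**Figure D2:**
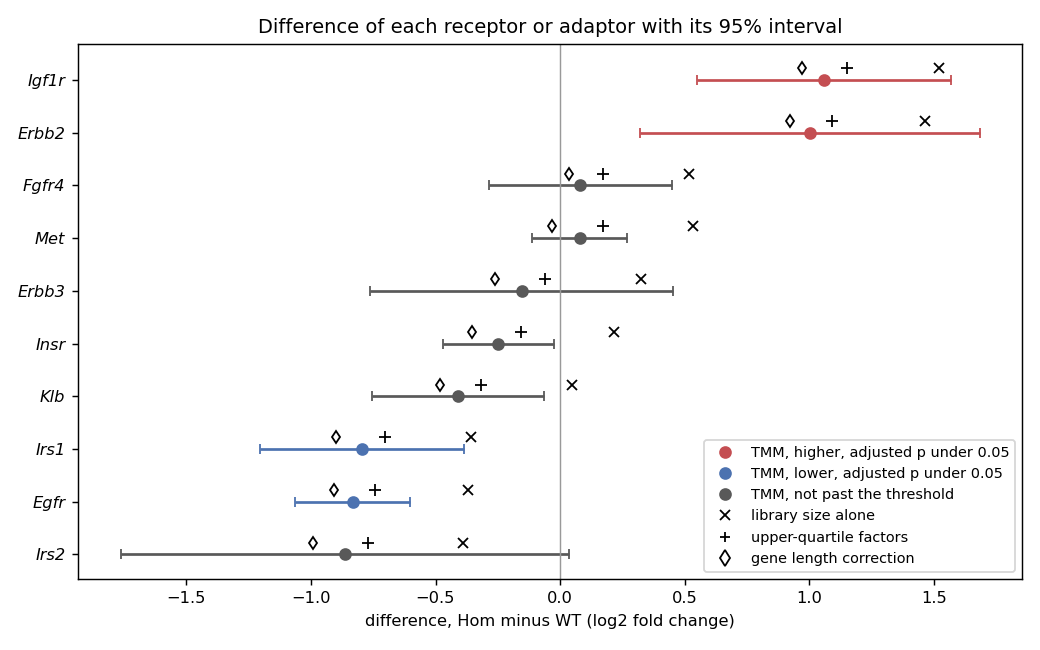
Difference between Hom and WT livers for each transcript (horizontal axis, log2 fold change) with its 95% interval from the edgeR fit with TMM scaling (circles with bars, n = 3 livers per group), and the same difference under other scalings (crosses, plus signs and diamonds). Library-size scaling moved all 10 to the right, and the signs of Erbb3, Insr and Klb changed with it.

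Insr, the insulin receptor, was somewhat lower in each Hom liver without passing the threshold. Its level was 113, 124 and 113 CPM in the WT livers and 88.5, 102 and 105 CPM in the Hom livers. The groups did not overlap, but the gap between them was close to the SD within a group. Insr had a log2 fold change of -0.25 (SE 0.0943, 95% interval -0.47 to -0.03, edgeR adjusted p = 0.0711). The gene length correction gave -0.35 (edgeR adjusted p = 0.0219), whereas library-size scaling turned the sign (0.21, edgeR adjusted p = 0.187).

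Igf1r, the IGF-1 receptor, rose about as much as Erbb2, with more counts behind it. It was at 5.08, 5.26 and 3.38 CPM in the WT livers (91, 82 and 55 counts) and at 7.84, 10.3 and 10.5 CPM in the Hom livers (168, 249 and 243 counts). Every Hom liver lay above every WT liver. The log2 fold change was 1.06 (SE 0.216, 95% interval 0.55 to 1.57, edgeR adjusted p = 0.0088), and it stayed between 0.88 and 1.18 when any 1 liver was left out, past the threshold each time. IGF1R is known to be more abundant in non-parenchymal liver cells than in hepatocytes, and the summed markers of stellate cells and fibroblasts were higher in the same livers. Their part in the difference was not tested.

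Irs1, the adaptor that joins the insulin and IGF-1 receptors to PI3-kinase, fell. Its level was 34.1, 23.4 and 24.4 CPM in the WT livers and 16.7, 13.5 and 17.1 CPM in the Hom livers. WT replicate 1 was the highest, and the groups did not overlap. Its log2 fold change was -0.79 (SE 0.173, 95% interval -1.20 to -0.38, edgeR adjusted p = 0.0112). It was -0.61 without WT replicate 1 (edgeR adjusted p = 0.014), and with library-size scaling it was -0.36 (edgeR adjusted p = 0.18).

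Irs2, the second adaptor, whose transcription insulin represses in liver, had a mean difference of the same size but a wider spread. Its level was 31.9, 33.2 and 56.3 CPM in the WT livers and 13.8, 17.6 and 35.2 CPM in the Hom livers. The replicate 3 liver was the highest in both groups, so that Hom replicate 3 lay above WT replicates 1 and 2. Irs2 had a log2 fold change of -0.86 (SE 0.38, 95% interval -1.76 to 0.04, edgeR adjusted p = 0.108). It was -1.36 without Hom replicate 3 (edgeR adjusted p = 0.0235) and -0.56 without WT replicate 3 (edgeR adjusted p = 0.294). DESeq2 gave an adjusted p of 0.0433 for the same difference.

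Fgfr4, the receptor for FGF15, did not differ detectably. Its level was 65.3, 45.3 and 49.6 CPM in the WT livers and 64, 54.4 and 51.2 CPM in the Hom livers, with overlap. The log2 fold change was 0.08 (SE 0.155, 95% interval -0.29 to 0.45, edgeR adjusted p = 0.701), with a change of sign without WT replicate 2 (-0.03) and without Hom replicate 1 (-0.02). Library-size scaling gave 0.52 (edgeR adjusted p = 0.0485). Klb, the co-receptor that FGFR4 needs to bind FGF15, was at 42.7, 54 and 37.1 CPM in the WT livers and at 36.4, 30.8 and 33.5 CPM in the Hom livers. The groups did not overlap, although the lowest WT liver and the highest Hom liver were almost level. The log2 fold change of Klb was -0.41 (SE 0.146, 95% interval -0.75 to -0.07, edgeR adjusted p = 0.0589). DESeq2 (adjusted p = 0.0425), the gene length correction (edgeR adjusted p = 0.0309) and the fit without WT replicate 3 (log2 fold change -0.53, edgeR adjusted p = 0.0285) put it past the threshold, and library-size scaling gave 0.05 (edgeR adjusted p = 0.785).

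Levels of different genes were compared per length, on the deposited FPKM, within each liver. Egfr ranked first in all 6 livers, at 69.09, 77.98 and 76.57 FPKM in WT and 46.92, 52.61 and 55.54 FPKM in Hom livers. By mean FPKM the WT order was Egfr (74.55 ± 4.78, SD, n = 3), Erbb3 (17.5 ± 2.29), Fgfr4 (16.5 ± 4.96), Insr (10.7 ± 0.532), Met (8.99 ± 0.301), Klb (7.81 ± 1.25), Irs2 (5.10 ± 1.63), Irs1 (2.59 ± 0.758), Igf1r (0.347 ± 0.085) and Erbb2 (0.327 ± 0.112). The ranges of Erbb3 and Fgfr4, of Met and Klb, of Klb and Irs2, and of Igf1r and Erbb2 overlapped, so the order within these neighbours was not resolved. In Hom livers the order was Egfr (51.7 ± 4.38), Fgfr4 (23.5 ± 1.59), Erbb3 (21.95 ± 8.42), Met (13.0 ± 0.436), Insr (12.4 ± 1.82), Klb (8.10 ± 0.291), Irs2 (3.90 ± 2.1), Irs1 (2.02 ± 0.217), Igf1r (0.997 ± 0.205) and Erbb2 (0.9 ± 0.167). There, the ranges of the neighbours Fgfr4 and Erbb3, Met and Insr, Irs2 and Irs1, and Igf1r and Erbb2 overlapped. Within single livers, Irs2 lay above Irs1 and Igf1r above Erbb2 in 3 of 3 Hom livers. Irs1 was at rank 8 in all 6 livers, and Igf1r and Erbb2 shared the last places in both groups. FPKM are scaled by library totals, so they were not compared between groups.

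**Figure D3:**
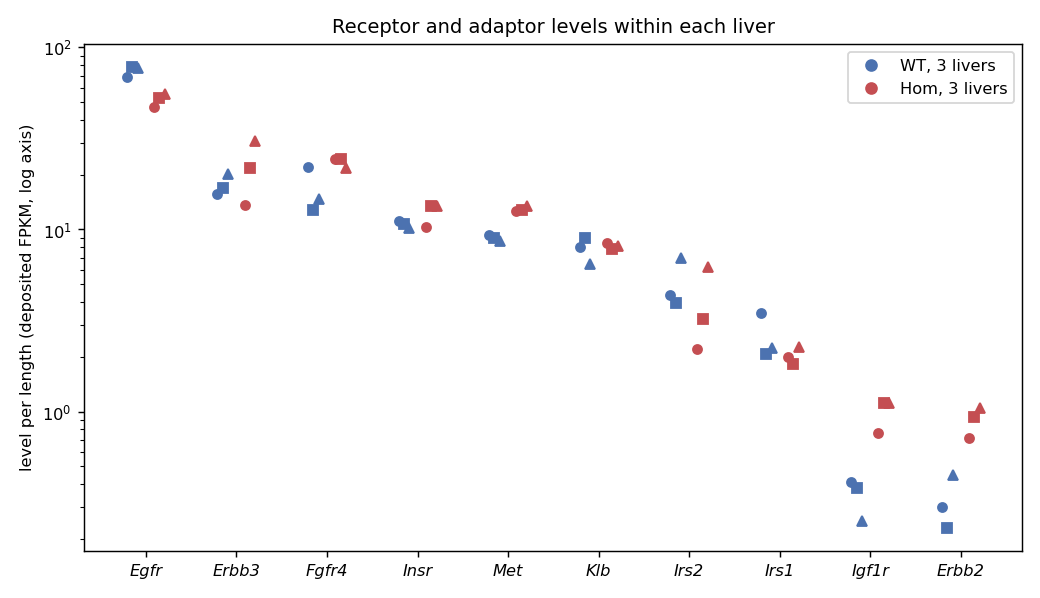
Deposited FPKM of each transcript (vertical log axis) in 3 WT livers (blue) and 3 Hom livers (red), ordered by the WT mean. Egfr lay above the other 9 in every liver, and Igf1r and Erbb2 lay at or below 1.12 FPKM.

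The ratio of 2 transcripts in the same liver does not depend on how libraries are scaled, so 7 such ratios of counts were compared between groups. Exact two-sided permutation tests of 3 against 3 livers cannot give less than p = 0.1. The log2 ratio of Erbb2 to Egfr was -7.81, -8.13 and -7.20 in the WT livers and -5.94, -5.86 and -5.70 in the Hom livers, so Erbb2 stood 3.68-fold higher relative to Egfr in Hom livers (exact p = 0.1, 0.14 after Benjamini-Hochberg adjustment over the 7). Met relative to Egfr had log2 ratios of -2.49, -2.46 and -2.53 in the WT livers and -1.42, -1.70 and -1.63 in the Hom livers, 1.88-fold higher. This pair had the smallest spread of the 7 among WT livers, with an SD of 0.037. Igf1r relative to Insr was 2.51-fold higher in Hom livers, with log2 ratios of -4.48, -4.56 and -5.07 against -3.50, -3.31 and -3.32. Erbb3 was 1.55-fold higher relative to Egfr and stood at 0.421 of its WT ratio relative to Erbb2. In these 5 pairs the groups did not overlap, and each exact p was 0.1, the smallest possible. Each of the 5 holds Egfr, Erbb2 or Igf1r, which passed the test on their own, so these ratios partly restate those calls. Of all single genes, 28.7% lay higher and 27.0% lay lower without overlap. Other pairs of genes were not compared. The balance of Irs2 to Irs1 overlapped between groups (log2 ratio 0.54 ± 0.653 against 0.38 ± 0.658, SD, n = 3, exact permutation p = 0.7), with the highest value in replicate 3 of each group. Klb relative to Fgfr4 also overlapped (-0.26 ± 0.454 against -0.75 ± 0.119, SD, n = 3, exact permutation p = 0.2).

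**Figure D4:**
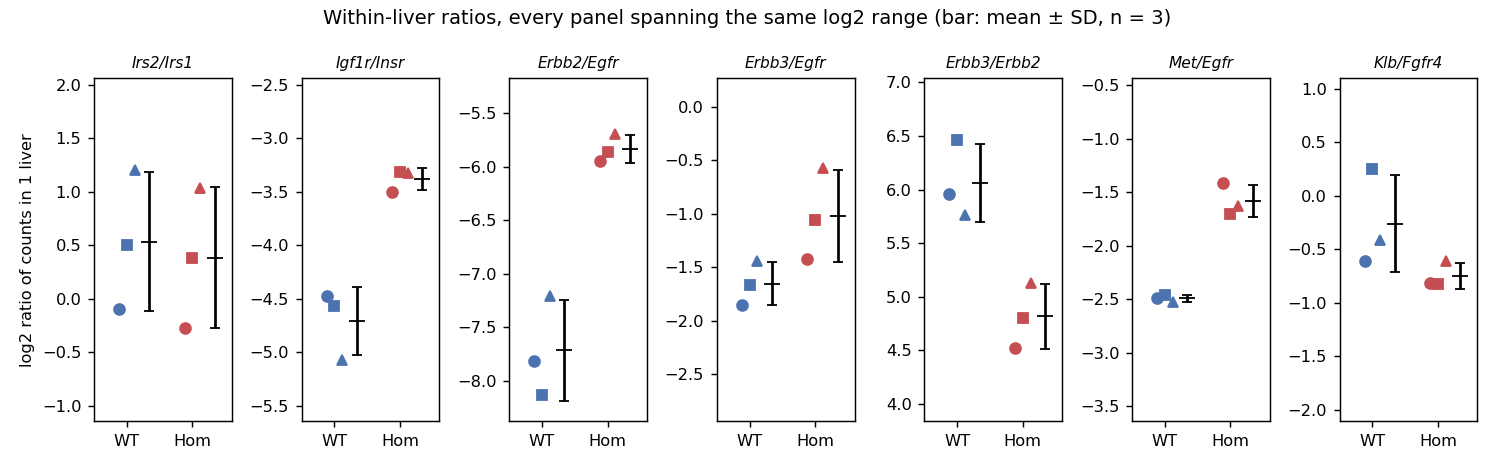
Log2 ratio of the counts of 2 transcripts in the same liver (vertical axis, each panel spanning the same log2 range) for 7 pairs in 3 WT livers (blue) and 3 Hom livers (red), with bars for mean ± SD. The groups were apart for 5 pairs, each of which holds Egfr, Erbb2 or Igf1r, and overlapped for Irs2/Irs1 and Klb/Fgfr4.

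The Egfr counts carried a feature that the other members did not. The gene length implied by a liver's estimated count, library total and FPKM is a weighted mean over the transcripts to which reads were assigned, and for Egfr it was 4865, 4078 and 4252 bases in the WT livers and 4655, 5117 and 4857 bases in the Hom livers. The spread between the shortest and the longest was 22.4%, against 0.0319% for Erbb3 to 4.78% for Fgfr4 among the other 9. Over 3899 genes with at least 500 counts in every liver the median spread was 0.502%, and 99.7% of them had a smaller spread than Egfr. The implied lengths of the groups overlapped (exact permutation p = 0.3). GENCODE M21 lists protein-coding Egfr transcripts of 10208, 2943 and 463 bases, and the table gives no values for single transcripts. Since FPKM divide by this length, Met relative to Egfr differed by 1.06 on the log2 scale of FPKM ratios and by 0.91 on that of counts.

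Over the 6 livers, the tested genes whose log2 CPM followed Igf1r most closely were Cib3 (r = 0.9966), the NF-kappaB subunit Relb (r = 0.9959) and Cttnbp2nl (r = 0.9958). Those closest to Egfr were the mitochondrial thiolase Acaa2 (r = 0.9995), the mitochondrial transporter Abcb10 (r = 0.9991) and the cytochrome P450 gene Cyp2d40 (r = 0.9988), which shares sequence with its paralogs. With 2 groups of 3 livers that lie apart, such values of r mostly record the difference between the groups. Accordingly, 366 genes had r over 0.95 with Igf1r and 1044 with Egfr.

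The other genes of these pathways were read from 9 lists with 130 genes, 116 of them tested. Of these 116, 26 were higher and 26 were lower in Hom livers, 22.4% each, and their median log2 fold change was -0.08. These shares are close to those of all genes. The counts of each list below are read beside the 21.5% and 20.1% of all genes, and differences between lists were not tested.

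Most tested ligands of the EGF receptor family rose. Of 7, 5 were higher and 0 were lower, with a median log2 fold change of 1.99 beside the -0.002 of all genes. Nrg2, among the 5, had enough counts to test only through the Hom livers. The count and the median therefore depend in part on the filter. Nrg1, a neuregulin for ERBB3, had 17, 10 and 12 counts in the WT livers and 220, 163 and 186 in the Hom livers (log2 fold change 3.41, SE 0.258, edgeR adjusted p = 0.000369). Nrg2, a second neuregulin, was at 2, 1 and 7 counts against 91, 29 and 59 (log2 fold change 3.68, SE 0.73, edgeR adjusted p = 0.00799), where the small WT counts leave the size of the fold uncertain. Btc (betacellulin) and Hbegf (heparin-binding EGF-like growth factor), both ligands of EGFR, rose as well. Btc went from 1.45, 1.48 and 2.03 CPM to 7.93, 11 and 11.9 CPM, and Hbegf from 0.838, 1.09 and 0.983 CPM to 4.06, 3.13 and 4.4 CPM. In each of these 4 ligands, no Hom liver overlapped with a WT liver. Tgfa was higher by 0.33 on the log2 scale (edgeR adjusted p = 0.0457), a call that was lost when any liver other than WT replicate 2 was left out (edgeR adjusted p = 0.0757 to 0.142). Nrg4, a neuregulin made by fat and liver, was at 7.04, 9.81 and 8.73 CPM in the WT livers and at 25.3, 4.7 and 5.86 CPM in the Hom livers. Only Hom replicate 1, the liver without counts on Ddx3y and Kdm5d, was above the WT livers, and without it the log2 fold change of Nrg4 turned from 0.49 to -0.69 (edgeR adjusted p = 0.0451). Ereg (epiregulin), named here after its values were seen, was at 1.17, 1.15 and 1.54 CPM in the WT livers and at 1.03, 0.783 and 1.08 CPM in the Hom livers, lower in each without passing the test (edgeR adjusted p = 0.269). Egf, with 5 to 11 counts in every liver, and Areg, with 1 to 14, were too low to test. The summed cholangiocyte markers rose in the same livers as these ligands, and their part was not tested.

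Hgf, the ligand of MET that stellate cells make, did not differ detectably (6.14, 5.13 and 4.12 CPM against 3.13, 5.03 and 6.12 CPM, edgeR adjusted p = 0.781), and its sign depended on the liver left out and on the scaling. Of the 7 ligands, activators and inhibitors of this kind, 3 were higher and 3 were lower. Hgfac, the circulating protease that activates HGF, fell by 0.76 on the log2 scale, from 220, 216 and 215 CPM to 132, 139 and 115 CPM (edgeR adjusted p = 0.00168), and with library-size scaling it was -0.30 (edgeR adjusted p = 0.0747). St14 (matriptase), a membrane protease, and Spint1, which inhibits such proteases, each rose by a log2 fold change of 2.66 (edgeR adjusted p = 0.0021 and 0.0046). The related inhibitor Spint2 rose by 0.39 (edgeR adjusted p = 0.00889). The summed cholangiocyte markers rose in the same livers, and their part in these rises was not tested.

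Of 10 insulin-like ligands and binding proteins tested, 2 were higher and 4 were lower, with a median log2 fold change of -0.64. Igf1, the hormone that hepatocytes secrete in response to growth hormone, was at 444, 539 and 465 CPM in the WT livers and at 330, 299 and 269 CPM in the Hom livers (log2 fold change -0.69, SE 0.128, edgeR adjusted p = 0.00637). With library-size scaling it was -0.23 (edgeR adjusted p = 0.122). Igfals and Igfbp3, which hold IGF-1 in a long-lived complex in blood, fell by 1.47 and by 1.18 on the log2 scale (edgeR adjusted p = 0.000515 and 0.0141), and the call of Igfbp3 was lost without Hom replicate 3 (log2 fold change -1.05, edgeR adjusted p = 0.0537) and with library-size scaling (-0.74, edgeR adjusted p = 0.0732). Igfbp2 fell by 1.61, and Igfbp7, a binding protein of vessel and matrix, rose by 1.36. The fetal growth factor Igf2 had 12 to 19 counts per WT liver and 42 to 50 counts per Hom liver (log2 fold change 1.14, edgeR adjusted p = 0.0179), and without WT replicate 2, Hom replicate 2 or Hom replicate 3 it no longer passed (edgeR adjusted p = 0.0597 to 0.0745). The receptor Igf1r was higher and Igf1 was lower in the same Hom livers, and a link between them was not tested.

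Among FGF ligands, 4 were tested. Fgf1 fell from 100, 168 and 127 CPM to 47, 36.6 and 48.9 CPM (log2 fold change -1.58, SE 0.205, edgeR adjusted p = 0.00174). Fgf2 had a log2 fold change of 0.73 (edgeR adjusted p = 0.0426), which did not pass when any liver other than WT replicate 1 was left out (edgeR adjusted p = 0.0577 to 0.132). Fgf21, a hormone of fasting and stress that also acts through Klb, was at 10 to 73 counts per liver with 1 high liver in each group (edgeR adjusted p = 0.677). Fgf15 was not analysed here. Of 7 tested receptors related to the 10, Fgfr1 rose by a log2 fold change of 1.52 (6.76, 15.2 and 12.5 CPM against 42.3, 25 and 31 CPM, edgeR adjusted p = 0.00933) and Fgfr3 by 0.98 (edgeR adjusted p = 0.00354). None of the 7 was lower.

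**Figure D5:**
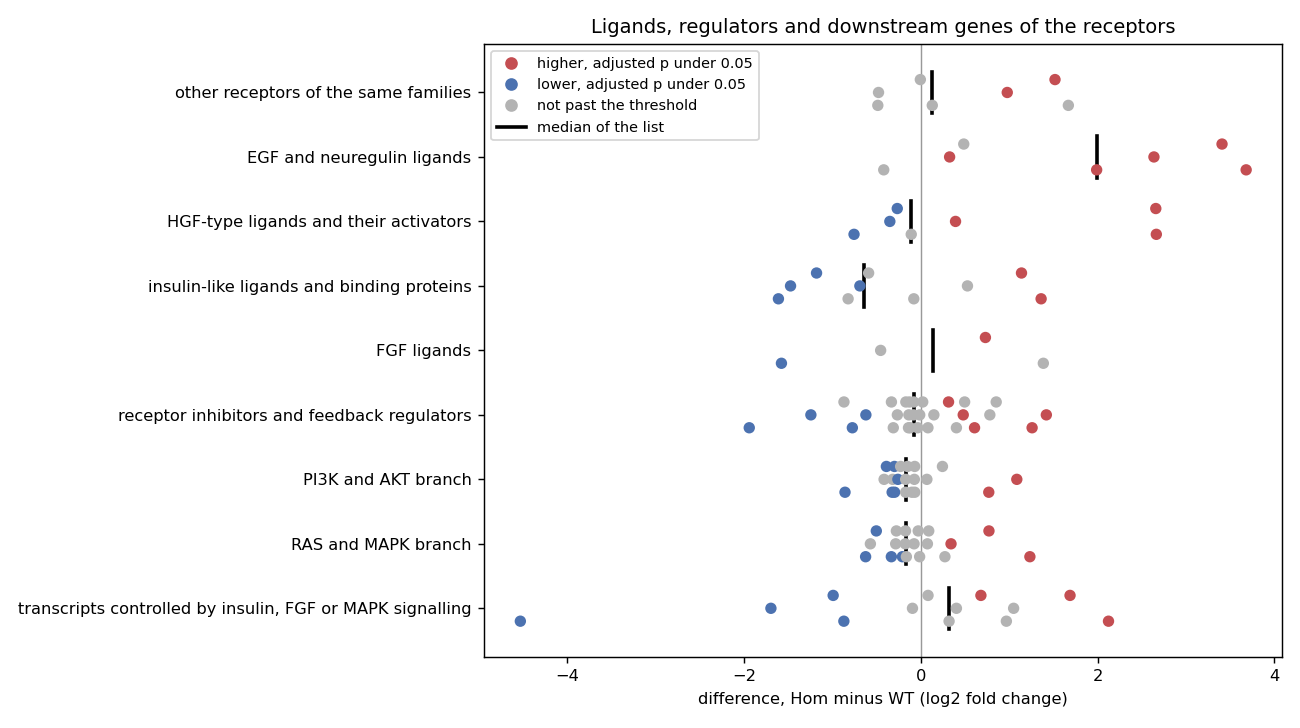
Difference between Hom and WT livers (horizontal axis, log2 fold change) for each tested gene of the 9 pathway lists (rows), coloured by the edgeR call at an adjusted p under 0.05, with a bar at the median of each list; the vertical offset within a row has no meaning. The EGF and neuregulin ligands had 5 of 7 genes higher and 0 lower, while the receptor inhibitors and feedback regulators were mostly near 0. Nrg2, among the 5, had enough counts to test only through the Hom livers.

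Of 29 inhibitors and feedback regulators of these receptors, 5 were higher, 4 were lower and 20 did not pass. Errfi1 (MIG6), which binds EGFR and blocks its kinase, was abundant and fell to 42.2% of its WT level, from 1790, 1880 and 1860 CPM to 815, 677 and 843 CPM (log2 fold change -1.24, SE 0.142, edgeR adjusted p = 0.00116). Spry4, a feedback inhibitor of RAS and MAPK signalling, fell from 14.6, 24.6 and 10.5 CPM to 5.65, 3.22 and 4.1 CPM (log2 fold change -1.94, edgeR adjusted p = 0.00585). Both act on receptor signalling that growth factors start, and whether their falls are tied to that of Egfr was not tested. Socs3, which interferes with IRS proteins and cytokine receptors, rose by 1.42 (edgeR adjusted p = 0.00303), and Grb10, an adaptor that restrains the insulin and IGF-1 receptors, rose by 1.26 (edgeR adjusted p = 0.00125).

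In the PI3K and AKT branch, 2 of 20 genes were higher and 6 were lower. Pik3r3, a regulatory subunit of PI3-kinase, rose by 1.09 on the log2 scale (edgeR adjusted p = 0.00607). Foxo1, the factor of the gluconeogenic programme that AKT restrains, fell by 0.86 (edgeR adjusted p = 0.00983), and with library-size scaling it was -0.41 (edgeR adjusted p = 0.0824). Gsk3a fell by 0.39 (edgeR adjusted p = 0.00498) with TMM scaling and stood at 0.06 with library-size scaling. In the RAS and MAPK branch, 3 of 19 were higher and 4 were lower. The adaptor Gab2 rose by 1.23 (edgeR adjusted p = 0.00389), and of the kinases of the cascade Mapk3 (ERK1) rose by 0.77 (edgeR adjusted p = 0.0016) while Map2k2 (MEK2) fell by 0.62 (edgeR adjusted p = 0.00298). The exchange factor Sos1 fell by 0.50 (edgeR adjusted p = 0.00597). The falls of Map2k2 and Sos1 were -0.18 and -0.04 with library-size scaling and did not pass.

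Of 13 transcripts that insulin, FGF or MAPK signalling is known to control, 3 were higher and 4 were lower. G6pc, the enzyme that releases glucose and that insulin represses, fell from 695, 692 and 555 CPM to 208, 145 and 246 CPM (log2 fold change -1.70, SE 0.213, edgeR adjusted p = 0.00156). Cyp7a1 and Cyp8b1 are both enzymes of bile acid synthesis that FGF15 lowers through FGFR4 and beta-Klotho, and they went opposite ways. Cyp7a1 rose from 28.6, 35.2 and 70.8 CPM to 189, 246 and 151 CPM (log2 fold change 2.12, SE 0.361, edgeR adjusted p = 0.00457). Cyp8b1 fell from 117, 413 and 488 CPM to 2.43, 20.6 and 20.9 CPM (log2 fold change -4.53, SE 0.882, edgeR adjusted p = 0.00749). For both enzymes the groups were apart. Ccnd1 (cyclin D1), which growth factors induce through MAPK, rose from 47.9, 20.2 and 39.7 CPM to 145, 106 and 97.4 CPM (log2 fold change 1.69, edgeR adjusted p = 0.0063). No protein, phosphorylation or ligand concentration was measured in these files, so the values describe transcripts.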

How the data were processed

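RNA from about 100 mg of frozen liver was extracted with Trizol and sequenced on the DNBSEQ platform, 1 library per mouse. The authors deposited estimated counts per gene that were not scaled between livers (65.9% are whole numbers), and FPKM values, which the authors scaled by the length of each gene and by the total of its library. The submitters' processing notes name HISAT2 2.0.4, Bowtie2 2.2.5, RSEM 1.2.12 and the build mm9, with no role for each. The annotation, the use of strand and the test behind their comparisons are not given in the sources used here, so reads of genes that overlap on opposite strands may not be told apart. The 6 TPM columns and the 6 columns of group means were not used.

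Rounded counts entered edgeR 4.0.16 under R 4.3.3 (filterByExpr, TMM, glmQLFit and glmQLFTest, no covariate), with p-values adjusted by the Benjamini-Hochberg method over all 13805 genes and a threshold of 0.05 without a minimum fold. Each standard error is the absolute log2 fold change divided by the square root of F. The scripts were tested on simulated data. Replicates are different mice. The set of members and the lists were proposed with earlier results of these data known. Genes named in the text are the 10 members, Nek7, 11 ligands (Fgf15 not analysed here), up to 4 genes per list with the largest change past the threshold (mean of at least 1 CPM in a group, no overlap), and the 3 genes closest to the most raised and the most lowered member past the threshold. 1 gene that this rule names is not reported here. Ddx3y, Kdm5d, Ereg and Alb were added after their values were seen. Alternatives were DESeq2 1.42.0, other scalings and filters, a correction for gene length by loess (span 0.3), the replicate number as a block and leaving out each liver. Livers of the same number did not deviate together from their group means (correlations -0.109, -0.056 and -0.049). Promoter windows are from RefSeq on GRCm38.p6, which is not the build of the files, so no position was carried from one to the other. Depth was 19349418 to 19730236 counts per liver.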

Additional observations from a re-analysis of the deposited data

How the results depend on the processing

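Over 14 alternative fits, the 10 members gave 140 log2 fold changes, of which 116 kept their direction and their side of the threshold, 5 lost a call and 11 gained one with the direction kept, and 8 changed sign. For the other 39 genes with a fitted change, Nek7 included, these numbers were 501, 37, 0 and 6 of 544, and of the 6 that changed sign Nrg4 gained a call (without Hom replicate 1) and Gsk3a lost one (library-size scaling). The cause of these shifts was not tested. Library-size scaling, which moved the median gene by 0.454 and made 91.1% of all calls higher (51.7% with TMM, 62.8% with upper-quartile factors), gave 4 members higher and 1 lower, and 47 pathway genes higher and 7 lower. Under it the signs of Erbb3 (0.32), Insr (0.21), Klb (0.046), Hgf (0.353) and Gsk3a (0.064) changed. DESeq2 gave 4 members lower, as did the gene length correction alone and with the replicate block, and Met then stood at -0.034 and -0.035. A minimum absolute log2 fold change of 1 left 0 members lower, and 15 pathway genes higher and 8 lower. Leaving out 1 liver gave 1 to 2 members higher, 2 to 3 lower, 19 to 28 pathway genes higher and 18 to 28 lower. Over these fits the log2 fold change changed sign for Erbb3 (-0.451 to 0.061, above 0 without Hom replicate 1), Fgfr4 (-0.029 to 0.247, below 0 without WT replicate 2 or Hom replicate 1), Nrg4 (-0.69 to 0.867, below 0 without Hom replicate 1), Hgf (-0.328 to 0.118, above 0 without WT replicate 1 or Hom replicate 1) and Fgf21 (-1.793 to 0.351, above 0 without WT replicate 1). The difference in the log2 ratio of Irs2 to Irs1 ranged from -0.482 to 0.182, with the sign changed without WT replicate 3 (0.182) or Hom replicate 1 (0.176), and the other 6 ratios kept their sign. With the replicate block, 2 members were higher and 3 lower: Irs2 passed (log2 fold change -0.93, edgeR adjusted p = 0.0079), while the calls of Igf2 (edgeR adjusted p = 0.0569) and Fgf2 (edgeR adjusted p = 0.0539) were lost, and it changed no other call of a named gene. The numbers name different mice whose deviations did not correlate, so this fit is given as a setting only. Depth limits the genes with few WT counts, among the members Erbb2 with 22 to 43.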
